A study of Mus musculus with 10 samples.

Results

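The binding sites of POLR3C and POLR3GL, both subunits of RNA polymerase III (Pol III), were set against each other in primary mouse embryonic fibroblasts (MEFs). The members are the peaks on the 19 autosomes of the chromatin immunoprecipitation sequencing (ChIP-seq) peak lists of these subunits, 274 for POLR3C and 263 for POLR3GL, or 537 of the 46940 peaks in all 8 lists of the series. They were taken by list and chromosome alone, and 1 peak of each list, on chromosome X, was left out. MEFs are a mixed population of connective tissue cells. Here they were isolated in house from E12.5 embryos, kept in stem cell medium with serum and no LIF, and passaged 3 to 5 times; no treatment or genetic change is stated, nor whether embryos were pooled. Each immunoprecipitation used chromatin of 30000000 to 50000000 cells and about 10 µg of an in-house antibody to the subunit. A POLR3G and a Pol II list of MEFs, and the POLR3C and POLR3GL lists of ES-E14TG2a embryonic stem (ES) cells, served as readouts that played no part in the pairing. Each antibody has 1 library per cell type, so no difference reported here has a replicate error or a test. Intervals are exact Clopper-Pearson 95% intervals, which cover counting error over peaks only. How many reads each list rests on is not known, and the fibroblast identity of the cells was not checked against marker genes.

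Pol III makes transfer RNAs, 5S ribosomal RNA and a set of other short RNAs. POLR3C (also known as RPC3 or RPC62) sits in a subcomplex of the enzyme, together with POLR3F, that is needed to start transcription at promoters. The third member of that subcomplex is either POLR3GL, which is found in most tissues, or its paralog POLR3G, which is known for high levels in stem cells and tumour cells and for falling when cells differentiate. Transfer RNA (tRNA) genes are short and often lie in dense groups.

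No gene is named below. The peak positions are on mouse build mm9, and the annotation at hand is of GRCm38, so loci are given by mm9 position and no exon, intron, UTR or gene label was attached. As a check of the kind of site, the number of loci per chromosome was set beside the number of tRNA genes that RefSeq lists on that chromosome in GRCm38.p6. Over the 19 autosomes, the Spearman rank correlation was 0.93. Chromosomes differ in length and gene density, for which no adjustment was made. Chromosome 13 came first in both, with 95 loci and 105 tRNA genes, followed in loci by chromosome 11 (38 loci, 52 genes) and chromosome 3 (28 loci, 40 genes). Chromosome 6 held 20 loci beside 53 listed tRNA genes and chromosome 1 held 18 beside 37. On some chromosomes loci outnumbered listed tRNA genes, as on chromosome 18 (4 loci, 0 genes) and chromosome 12 (6 loci, 3 genes).

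The subunits were found together at most sites. Paired by at least 1 bp of overlap, 236 of 274 POLR3C peaks met a POLR3GL peak (86.1%, 81.5 to 90.0%), and 236 of 263 POLR3GL peaks met a POLR3C peak (89.7%, 85.4 to 93.1%). Every overlap was 1-to-1: 0 peaks of either list touched 2 peaks of the other. The lists therefore made 301 loci, of which 236 carried both subunits (78.4%, 73.3 to 82.9%), 38 POLR3C only and 27 POLR3GL only. That overlaps were 1-to-1 was nearly fixed by the widths (224 bp for POLR3C, 148 bp for POLR3GL) and spacing of peaks. POLR3C midpoints were at least 450 bp apart, too far for a POLR3GL peak to touch 2. Few neighbouring POLR3GL peaks were close enough for a POLR3C peak to touch both. Of these 301 loci, 151 (50.2%) lay in 8 clusters, defined as at least 8 loci with gaps of at most 200 kb. The share in clusters was 52.1% (45.5 to 58.6%) for loci of both subunits, 42.1% (26.3 to 59.2%) for POLR3C only and 44.4% (25.5 to 64.7%) for POLR3GL only, and these intervals overlap.

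Pairing by midpoints up to 500 bp apart changed only one side of the comparison. It gave 254 of 263 POLR3GL peaks a partner (96.6%, 93.6 to 98.4%), 18 more than overlap did, whereas the count of POLR3C peaks with a partner stayed at 236. Within this distance 24 POLR3C peaks faced 2 or more POLR3GL peaks, with 3 at most, and 7 POLR3GL peaks faced 2 or more POLR3C peaks. Most POLR3GL peaks without an overlapping POLR3C peak thus had one within 500 bp, and 0 of the 38 POLR3C peaks without POLR3GL had a POLR3GL peak that near.

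The midpoints of paired peaks lay close together. POLR3C peaks were all 224 bp wide and POLR3GL peaks 148 bp, so a POLR3GL peak lies wholly inside its partner when the midpoints differ by at most 38 bp. The absolute offset had a median of 14 bp (exact binomial 95% interval of the median 11 to 17 bp) and quartiles of 4 and 44 bp. It was at most 10 bp in 100 of 236 pairs (42.4%, 36.0 to 49.0%), at most 38 bp in 171 (72.5%, 66.3 to 78.1%) and over 100 bp in 4. With the offset taken as POLR3GL minus POLR3C along the plus strand of the reference, 136 pairs were above 0, 93 below and 7 exactly at 0, with a median of 2 bp (1 to 4 bp). The 65 pairs in which POLR3GL reached outside its partner split into 36 to the right and 29 to the left. The direction of transcription is unknown without an annotation, so these sides are not upstream and downstream.

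**Figure D1:**
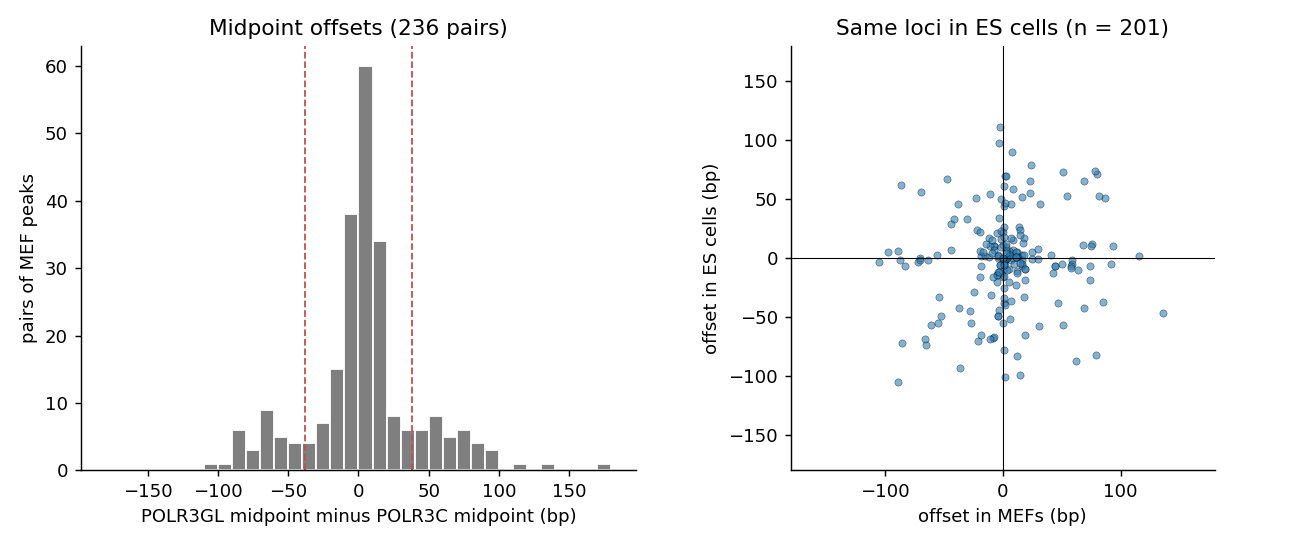
Left, histogram of the POLR3GL midpoint minus the POLR3C midpoint in bp over the 236 pairs of MEF peaks, in bins of 10 bp, with dashed lines at 38 bp on either side of 0. Right, the same offset in MEFs against that in ES cells for the 201 pairs whose MEF peaks were each overlapped by an ES peak of the same subunit. The Spearman rho of the signed offsets is 0.08. Of the 56 loci more than 38 bp from 0 in MEFs, 22 are also that far in ES cells (39.3%), against 40 of the other 145 (27.6%).

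The offsets of the subunits were of the same size as those of 1 subunit between cell types. The comparison used the 201 pairs in which each MEF peak was overlapped by an ES peak of the same subunit. This overlap limits how far 1 subunit can lie apart between cell types, as the pairing does for the subunits in MEFs. At these loci the median absolute offset between POLR3C and POLR3GL was 14 bp in MEFs and 15 bp in ES cells. At the same loci it was 10 bp between the POLR3C lists of MEFs and ES cells and 16 bp between their POLR3GL lists, and the upper quartiles of the 4 comparisons ran from 42 to 49 bp. At the 159 pairs whose POLR3GL peak met a POLR3G peak of MEFs, POLR3GL and POLR3G, whose peaks have the same width, differed by a median of 16 bp, and POLR3C and POLR3GL by 12 bp. Over these loci as a set, the sign of the offset was not generally kept between cell types. Across the 201 loci, which share antibodies but no library, MEF and ES offsets had a Spearman rho of 0.08 and a Pearson r of 0.11. Of the 56 loci where MEF POLR3GL reached outside POLR3C, 27 had an ES offset of the same sign (48.2%, 34.7 to 62.0%). This count includes loci with an ES offset near 0. The ES offset exceeded 38 bp at 22 of the 56 (39.3%, 26.5 to 53.2%). It did so at 40 of the other 145 loci (27.6%, 20.5 to 35.6%), and the intervals overlap. Some loci were displaced alike in MEFs and ES cells, as on chromosome 17 (78 and 74 bp). Others were displaced in opposite directions, as on chromosome 13 (62 and -87 bp).

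The 5 pairs with the largest offset were picked by their MEF values, which favours smaller offsets in ES cells. At chromosome 7 from 105963962 to 105964317, the POLR3GL midpoint lay 170 bp to the right of the POLR3C midpoint, and POLR3C scored 268 and POLR3GL 62. Next came chromosome 19 from 12083966 to 12084287, with an offset of 136 bp in MEFs and -47 bp in ES cells. The offset was 116 bp at chromosome 11 from 68876327 to 68876628, -105 bp at chromosome 12 from 53705406 to 53705696 and -97 bp at chromosome 2 from 122203730 to 122204012. In ES cells these last 3 loci had offsets of 2, -3 and 5 bp. Of these 5 pairs, none of the 4 that could be compared was displaced the same way by more than 38 bp in both cell types. Some pairs outside these 5 were, such as another on chromosome 19 with -89 bp in MEFs and -105 bp in ES cells.

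The lists differed in how close neighbouring peaks came. The smallest distance between midpoints of peaks in the POLR3C list was 450 bp, which is 2.01 peak widths. In the POLR3GL list it was 303 bp (2.05 widths), in the POLR3G list 316 bp (2.14 widths), and in the ES lists 410 bp for POLR3C (1.92 widths) and 342 bp for POLR3GL (2.41 widths). Thus 28 POLR3GL peaks, and 0 POLR3C peaks, had a neighbour of their own list nearer than 450 bp. Whether the peak caller set these distances was not tested. Sites this close are common among Pol III genes: 64 of the 391 tRNA genes that RefSeq lists on the autosomes in GRCm38.p6 (16.4%) have another tRNA gene with its midpoint under 450 bp away.

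The 28 POLR3GL peaks formed 14 neighbouring pairs, 303 to 448 bp apart, and POLR3C had a peak at exactly 1 member of each of the 14. Since 450 bp was taken from the POLR3C list itself, which holds no closer peaks, the count of 0 pairs with POLR3C at both members was nearly fixed by that choice and is a description of the list. At a spacing of 450 to under 600 bp, POLR3C met both members of 11 of 20 neighbouring pairs, 1 member of 8 and neither of 1. At 601 to 973 bp it met both of 24 of 28 pairs (85.7%), and at 1037 to 1919 bp both of 17 of 19 (89.5%). In the other direction POLR3GL met both members of 18 of the 19 neighbouring POLR3C pairs less than 600 bp apart. The other lists also varied in the members of the 14 close pairs that they met. ES POLR3GL had a peak at both members of 11 of the 14 and at 1 of the other 3, while MEF POLR3G had both in 7, 1 in 6 and none in 1. ES POLR3C met both members of only 1 of the 14, a pair 448 bp apart, and 1 member of the other 13. The ES POLR3C list holds no peaks nearer to each other than 410 bp. For the pairs closer than that, its lack of peaks at both members was therefore nearly fixed as well.

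**Figure D2:**
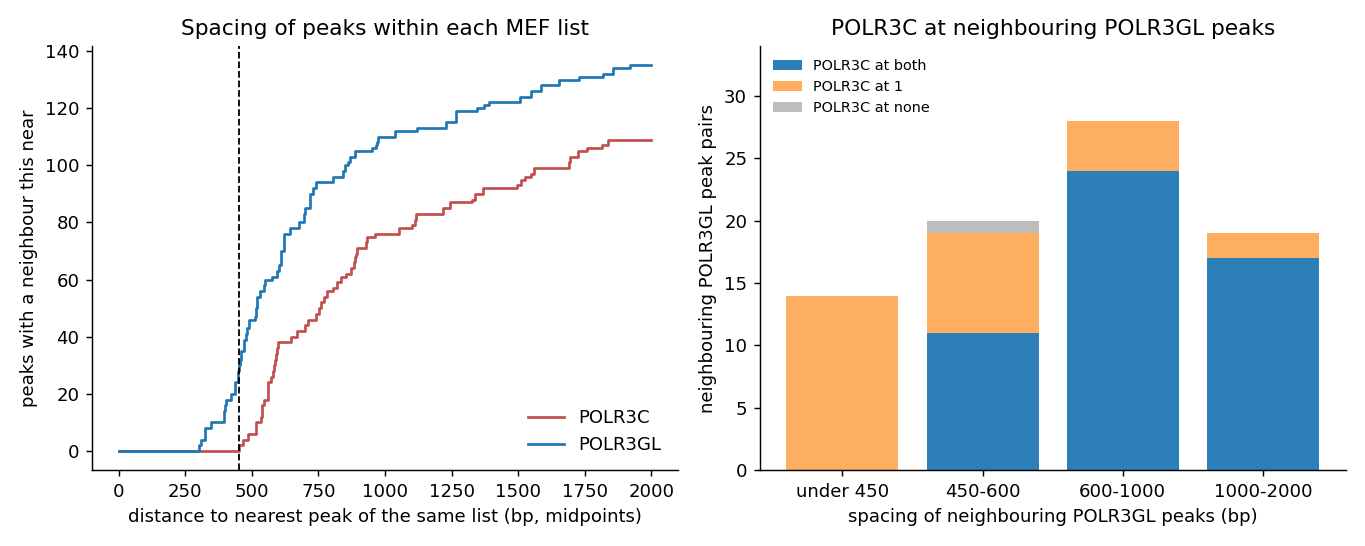
Left, the cumulative number of peaks of each MEF list (y axis) whose nearest neighbour in the same list lies within the distance on the x axis (bp between midpoints), with a dashed line at 450 bp, the smallest distance in the POLR3C list. Right, neighbouring pairs of POLR3GL peaks by spacing, coloured by whether POLR3C had a peak at both members, at 1 or at none; all 14 pairs under 450 bp have POLR3C at 1 member, which the choice of 450 bp nearly fixes.

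Which member of a close pair carried the POLR3C peak varied. It was the member of higher POLR3GL score in 9 of the 14. In ES cells the single POLR3C peak lay at the same member in 9 pairs and at the other member in 4. The POLR3C midpoint stayed near the member it met, with a median absolute offset of 8 bp, and was displaced towards the neighbour in 11 of the 14 (median 5.50 bp, at most 80 bp). POLR3GL scores had medians of 61 at the members with POLR3C and 56.5 at those without. Within single pairs they could differ more, as on chromosome 3, with 61 at the member with POLR3C and 31 at the other. Some pairs went the other way, as on chromosome 14, with 56 and 65.

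At the members of close pairs without POLR3C, POLR3GL scores ran from 27 to 71. Most of the following examples come from the upper part of that range. At chromosome 11, POLR3GL peaks from 58115654 to 58115801 and from 58115962 to 58116109 scored 71 and 73, and 1 POLR3C peak, with a score of 277, met the second. ES POLR3GL had a peak at both. On chromosome 2, POLR3GL peaks from 57034422 to 57034569 and from 57034747 to 57034894 scored 69 and 71, and POLR3C (289) met the first only, while MEF POLR3G (41) met the second only. In the pair on chromosome 14 that starts at 51684456, the members scored 65 and 56 for POLR3GL, POLR3C (236) met the one of lower score, and POLR3G met both. At chromosome 8 from 97227465 to 97228010, POLR3GL scored 49 and 46, and the POLR3C peak (220) at the first member was displaced by 80 bp towards the second. In ES cells POLR3C met the second member of that pair in place of the first.

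These neighbours made up most of the POLR3GL sites without POLR3C. Of the 27, 14 were the members of the close pairs that POLR3C did not meet. A further 8 also had a POLR3C midpoint within 1000 bp (443 to 961 bp) and another POLR3GL peak 453 to 518 bp away. The scores of these 22 ran from 24 to 71 with a median of 47, near the median of 49.5 for paired POLR3GL peaks. Of the 10 POLR3GL sites without POLR3C that scored at or above the median of the whole list (49), 8 belonged to the close pairs. The other 2 were chromosome 5 from 31190872 to 31191019 (score 62), which was 443 bp from POLR3C, and chromosome 3 from 96305358 to 96305505 (score 58), which was 506 bp from it.

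Only 5 POLR3GL peaks were far from POLR3C, at 1040835 bp or more. Their scores, 16 to 22, were near the lowest of the list (15). They were named after their values were seen. The sites at chromosome 3 from 145309411 to 145309558 (22) and chromosome 1 from 87489654 to 87489801 (16) also had a POLR3G peak, with scores of 22 and 15. The second of these, and chromosome 1 from 135971295 to 135971442 (18), lay in a MEF Pol II peak. Those at chromosome 18 from 35025154 to 35025301 (20) and chromosome 15 from 101106361 to 101106508 (16) had none of these. None of the 5 had a POLR3C or POLR3GL peak in ES cells.

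The POLR3C sites without POLR3GL had low scores and mostly no close neighbour. Their POLR3C scores had a median of 67.5 (40 to 189), against 222.5 (41 to 319) at paired sites, and 37 of the 38 lay in the lowest quartile of the POLR3C list, that is at 157.5 or below (97.4%, 86.2 to 99.9%). Of all POLR3C peaks scoring up to 50, 1 of 12 had a POLR3GL peak. The share was 4 of 25 at 53 to 100, 20 of 25 at 103 to 150 (80%), 48 of 49 at 151 to 200 (98.0%) and 163 of 163 above 200. No such step was seen from the POLR3GL side, where 10 of 14 peaks scoring 15 to 20 had POLR3C (71.4%, 41.9 to 91.6%) and 68 of 73 above 60 (93.2%, 84.7 to 97.7%). Low POLR3C score and missing POLR3GL thus went together. The part that calling thresholds or depth play in this was not tested.

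**Figure D3:**
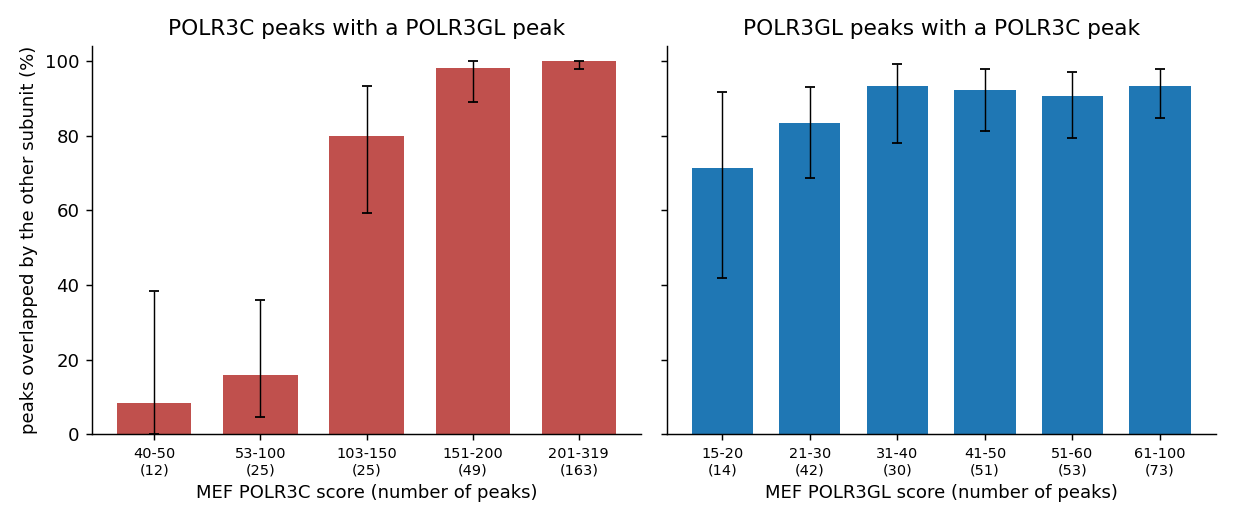
Share of MEF POLR3C peaks overlapped by a POLR3GL peak (left) and the reverse (right), in classes of the peak's own deposited score, with the number of peaks in brackets. Bars are percentages and error bars exact 95% intervals over peaks; the share on the left goes from 8.33% in the lowest class to 100% in the highest, and on the right from 71.4% to 93.2%.

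Of the 38, 2 had a POLR3GL midpoint within 1000 bp, 12 within 10000 bp, 22 within 100000 bp and 28 within 1000000 bp, and 10 were farther. The median distance to the nearest other locus of either subunit was 15477 bp, against 2330.5 bp for the 235 paired loci with another locus on their chromosome and 444 bp for POLR3GL only. Without chromosome 13 these medians were 27312, 3350 and 439 bp. They were spread over 14 autosomes but gathered in places. The cluster on chromosome 3 from 96125883 to 96305505 held 7 of them among its 16 loci, with POLR3C scores of 43 to 189, beside 8 paired loci and 1 of POLR3GL only. By contrast, the cluster with the most loci, on chromosome 13 from 23362220 to 23622363, held 1 among 37, and that on chromosome 11 from 68850440 to 68938871 held 0 among 15, where 4 were of POLR3GL only. On chromosome 17 from 23672114 to 23687337, 3 of 8 loci were of POLR3C only, with scores of 40, 57 and 58. At the end of chromosome 7, from 152097025 to 152100505, 2 POLR3C peaks 3257 bp apart (78 and 91) had no other peak of MEF Pol III or ES POLR3C or POLR3GL on them.

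The highest-scored of these sites were as follows. The POLR3C peak at chromosome 3 from 96304254 to 96304477 (189) was the exception in score. It lay 560 bp from a stronger paired locus, chromosome 3 from 96304814 to 96305037 (252 for POLR3C and 80 for POLR3GL), beyond which came the POLR3GL peak of score 58 at 96305358, so that 3 loci in a row held POLR3C only, both and POLR3GL only. In ES cells the last of these 3 had POLR3C (2457) and POLR3GL (37), and the first had neither. The other 4 were chromosome 7 from 127986048 to 127986271 (129), chromosome 13 from 22086032 to 22086255 (116) and from 22028851 to 22029074 (115), and chromosome 3 from 96283277 to 96283500 (103, equal to a site on chromosome 8). All 4 had an ES POLR3C peak, with scores of 949, 689, 1261 and 754, and 1 of them, at 22028851, an ES POLR3GL peak.

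The other lists met the classes of loci in different shares. MEF POLR3G met 172 of the 301 loci (57.1%): 160 of 236 paired loci (67.8%, 61.4 to 73.7%), 12 of 27 with POLR3GL only (44.4%, 25.5 to 64.7%) and 0 of 38 with POLR3C only (upper bound 9.25%). Counting POLR3G peaks within 500 bp, the share with POLR3GL only was 81.5% and that with POLR3C only 2.63%. This window can take in the POLR3G peak of a neighbouring site, as 22 of the 27 had another POLR3GL peak 303 to 518 bp away. POLR3G was also rare at weak paired sites, however: among the 61 paired loci with a POLR3C score up to 189 it met 10 (16.4%, 8.15 to 28.1%), and among the 5 scoring 40 to 100 it met 0. ES POLR3C met 253 of the 301 loci (84.1%). The share was 94.9% (91.3 to 97.3%) at paired loci, 55.3% (38.3 to 71.4%, 21 of 38) with POLR3C only and 29.6% (13.8 to 50.2%, 8 of 27) with POLR3GL only. The order of these single-subunit classes turned when a peak within 500 bp counted, to 57.9% with POLR3C only and 81.5% with POLR3GL only; 18 of these 27 loci had a MEF POLR3C peak within that distance. ES POLR3GL met 226 (75.1%), which were 87.7% (82.8 to 91.6%) of paired loci, 59.3% (38.8 to 77.6%, 16 of 27) with POLR3GL only and 7.89% (1.66 to 21.4%, 3 of 38) with POLR3C only. All 16 of the POLR3GL-only loci were neighbours within 1000 bp of POLR3C. ES POLR3C met 88.5% (77.8 to 95.3%) and ES POLR3GL 67.2% (54.0 to 78.7%) of the 61 paired loci with a POLR3C score up to 189. This cut does not match scores: 5 of the 61 scored 40 to 100, against 32 of the 38 POLR3C-only loci. At 40 to 100, ES POLR3C met 4 of 5 paired and 16 of 32 POLR3C-only loci. There ES POLR3GL met 2 of 5 and 2 of 32. From over 100 to 150, ES POLR3C met 18 of 20 and 5 of 5, and ES POLR3GL 15 of 20 and 1 of 5. The intervals of paired and POLR3C-only loci overlap in each case.

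The 21 POLR3C-only sites shared with ES POLR3C had a median MEF score of 78 (40 to 129). The 17 others had a median of 55 (40 to 189) and met no peak of MEF POLR3G or ES POLR3GL. Those 17 sites rest on 1 peak of 1 library.

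MEF Pol II peaks met 93 of the 301 loci (30.9%). They met 34.3% (28.3 to 40.8%) of paired loci, 15.8% (6.02 to 31.3%, 6 of 38) with POLR3C only and 22.2% (8.62 to 42.3%, 6 of 27) with POLR3GL only. Within 1 kb the share was 38.5% of all loci, and 41.1%, 23.7% and 37.0% in these classes. The intervals overlap between classes in both counts. The 6 POLR3C-only sites in a Pol II peak included chromosome 14 from 51427008 to 51427231 (POLR3C score 91, ES POLR3C 390) and chromosome 17 from 71948574 to 71948797 (88, ES POLR3C 715 and ES POLR3GL 17), which were named after their values were seen.

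**Figure D4:**
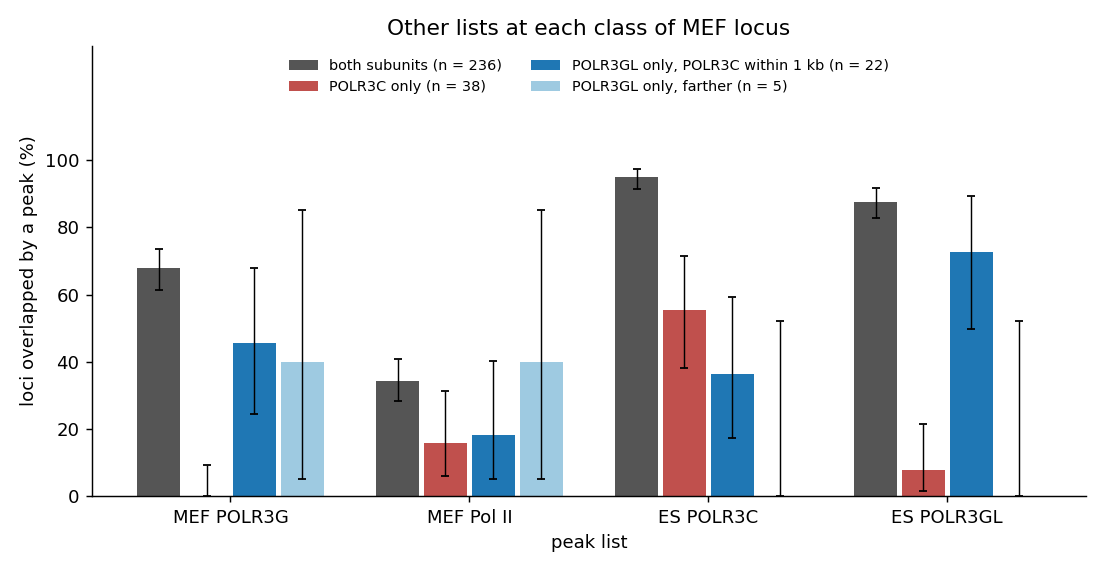
Percentage of MEF loci overlapped by a peak of MEF POLR3G, MEF Pol II, ES POLR3C or ES POLR3GL, for loci of both subunits (236), POLR3C only (38), POLR3GL only with POLR3C within 1 kb (22) and POLR3GL only farther away (5). Error bars are exact 95% intervals over loci; POLR3G reaches 67.8% of loci of both subunits and 0% of those of POLR3C only.

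At paired loci the scores rose together. The deposited score is a whole number per peak on a scale that is not stated, 40 to 319 for POLR3C and 15 to 100 for POLR3GL, and scores were compared only within a list, by rank, median or score class. Across the 236 pairs, whose peaks come from different libraries of the same cell type, the Spearman rho was 0.85. Whether these libraries shared a chromatin preparation is not stated. It was 0.87 on chromosome 13 (82 pairs) and 0.77 on the other autosomes (154 pairs). Pairs on chromosome 13 had lower scores of both subunits, with medians of 207.5 against 233.5 for POLR3C and 41 against 55.5 for POLR3GL. Within quartiles of POLR3GL score, which narrow the range, the correlation was lower. In the lowest quartile of POLR3GL score (15 to 35), the POLR3C median was 162 and rho within the quartile 0.69. In the next 3 quartiles the POLR3C medians were 211, 234 and 252, and rho was 0.30, 0.39 and 0.47. MEF POLR3G, which did not enter the pairing, met 12.7%, 69.1%, 95.5% and 98.0% of the pairs in these 4 quartiles. Pairs with POLR3GL wholly inside POLR3C and the others had like correlations, of 0.85 (171 pairs) and 0.83 (65 pairs).

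**Figure D5:**
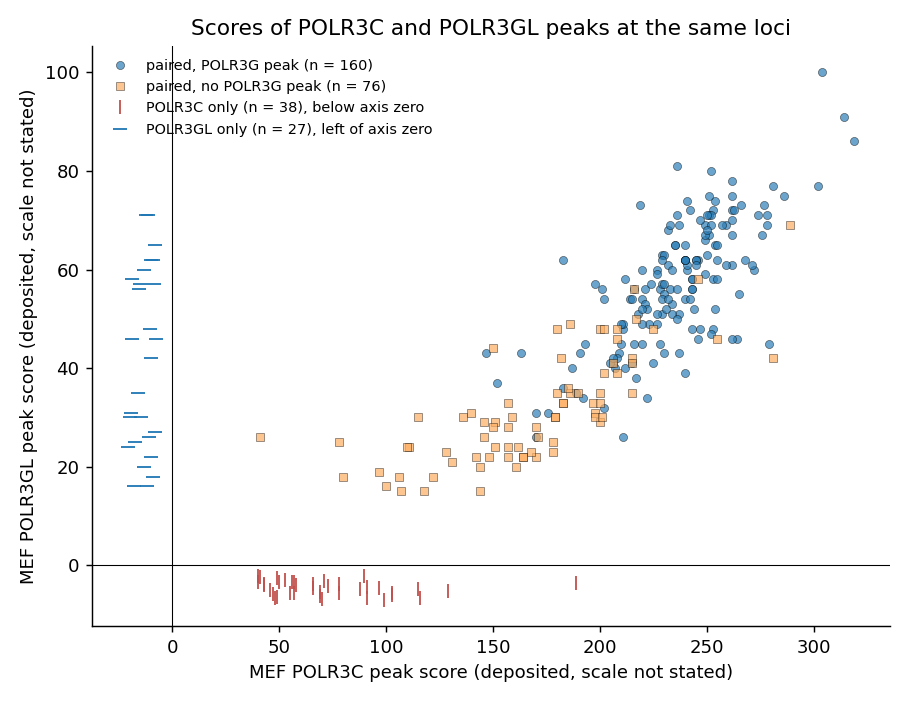
Deposited POLR3GL score against deposited POLR3C score for the 236 paired MEF loci, circles with and squares without a MEF POLR3G peak. Ticks below and left of the zero lines give the scores of the 38 POLR3C-only and 27 POLR3GL-only loci, with random placement across the strip; all but 1 of the POLR3C-only ticks lie at 129 or below.

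The same 3 loci led both lists. Chromosome 11 from 106874103 to 106874326 had the highest POLR3C score (319) and the third highest POLR3GL score (86), with an offset of 0 bp. The second in both was chromosome 14 from 51709102 to 51709325 (314 and 91, offset 1 bp). The highest for POLR3GL (100) and the third for POLR3C (304) was chromosome 7 from 127978905 to 127979128. Each of the 3 had a POLR3G peak and peaks of both subunits in ES cells. The top 5 of POLR3C were completed by chromosome 18 from 36961452 to 36961675 (302 and 77) and by the chromosome 2 site of the close pair described above (289 and 69). Those of POLR3GL were completed by chromosome 3 from 90279745 to 90279968 (236 and 81) and from 96304814 to 96305037 (252 and 80). Of the 20 highest pairs by each subunit, 8 were shared. Of the lowest, 12 were shared between the 21 lowest by POLR3C, counting ties, and the 20 lowest by POLR3GL.

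Ranks were set over the 236 pairs, with 236 the highest and ties given their mean. The absolute difference between the ranks of a pair had a median of 20.2 and quartiles of 7.50 and 36.6, and 28 pairs (11.9%, 8.03 to 16.7%) differed by more than 59 places of the 236. POLR3C ranked higher in 16 of these and POLR3GL in 12. The largest difference was at chromosome 7 from 19886510 to 19886733, where the POLR3C score of 281 had rank 229.5 and the POLR3GL score of 42 rank 82, with an offset of 1 bp and no POLR3G peak. Next was chromosome 4 from 43505823 to 43506052, with scores of 279 and 45 (ranks 228 and 94.5), and by the chromosome 19 site with the offset of 136 bp, with 264 and 46 (217 and 100). The list went on with chromosome 3 from 96239461 to 96239685, with 262 and 46, which in ES cells had POLR3C (702) and no POLR3GL, and chromosome 7 from 128062160 to 128062383, with 255 and 46 and no POLR3G peak.

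On the other side, POLR3GL ranked highest over POLR3C at chromosome 6 from 128793187 to 128793410, with a POLR3GL score of 62 (rank 180) and a POLR3C score of 183 (rank 54.5). At chromosome 1 from 172968625 to 172968854 the scores were 73 and 219 (ranks 222 and 109), and at chromosome 5 from 150040456 to 150040679 they were 57 and 198 (153.5 and 68). The site on chromosome 3 at 90279745 (81 and 236) and that on chromosome 13 from 23545291 to 23545514 (56 and 201) completed these 5, and all 5 had a POLR3G peak. POLR3G was found on both sides, at 14 of 16 pairs where POLR3C ranked higher (87.5%, 61.7 to 98.4%) and 11 of 12 where POLR3GL did (91.7%, 61.5 to 99.8%), beside 160 of all 236 pairs (67.8%) and 69.1 to 98.0% in the upper 3 quartiles of POLR3GL score.

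These rank differences were not carried over to ES cells. At the 201 pairs whose peaks each met an ES peak of the same subunit, the scores of the subunits correlated alike in each cell type (rho = 0.81 in MEFs and 0.82 in ES cells). There the rank difference in MEFs and that in ES cells had a Spearman rho of 0.09. Of the 15 pairs with POLR3C more than 59 places higher in MEFs, 7 also had POLR3C higher in ES cells, with a median ES difference, POLR3GL minus POLR3C, of 6.50 places. Of the 12 with POLR3GL higher, 8 had POLR3GL higher in ES cells (median 8.25 places). Each subunit's own scores correlated between the cell types at these loci, with rho of 0.57 for POLR3C and 0.58 for POLR3GL.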

How the data were processed

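ChIP-seq peak lists of POLR3C and POLR3GL in MEFs were compared, each from 1 library. Fixation was at 80% confluence and chromatin was sonicated to 200 to 700 bp on average, per the labels' protocols. CASAVA 1.8, Bowtie 1.12, SAMtools, HOMER and build mm9 are named in the submitters' processing notes. No source used here gives caller settings, controls, pooling or read depth, and the input libraries were not analysed here. The deposited files give 1 score per peak, made by the authors on an unstated scale, and 1 fixed width per Pol III list. Starts were read as 0-based and are printed 1-based.

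A peak had a partner when any peak of the other list shared at least 1 bp or, in the other pairing, had its midpoint within 500 bp, where 1 peak can serve several. Offsets and score ranks were taken over mutually nearest pairs. Loci were joined overlapping peaks. Other lists met a locus at 1 bp of overlap. No test was run, since each side has 1 library. Wide peaks and large minimum distances lower the number of neighbouring sites that a list can hold. The pairing was tested on simulated lists with sites far apart, so that test did not cover close neighbours. Loci named are the 5 highest pairs by each score, the 5 largest rank differences in each direction, the 5 largest offsets, and the 5 highest single sites of each list with and without a partner within 500 bp. A further part of that rule, peaks touching 2 of the other list, found none, which peak widths and spacing nearly fixed. Close pairs, clusters and score classes were added later and their loci were named after their values were seen. The members and lists were chosen with earlier results of these data known. Gene classes need an mm9 annotation and were not assigned. Python 3.11.15, numpy 2.4.6, scipy 1.17.1 and pandas 2.3.3 were used.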

Additional observations from a re-analysis of the deposited data

How the results depend on the processing

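Of 97 values recomputed under other settings, 83 stayed near the reported value and 14 moved. Near means within the exact interval of a share or median, or within 1.5 times of a count. For the score correlation it means within an approximate Fisher z interval of the reported Spearman rho. With midpoints at most 500 bp apart, POLR3GL peaks with POLR3C came to 96.6%, POLR3GL-only loci to 9, loci with more than 1 peak of a list to 21, the share of POLR3GL-only peaks in the lowest score quartile to 88.9% from 44.4%, and ES POLR3GL at POLR3GL-only loci to 33.3%. Pairing within 500 bp joins neighbouring peaks by construction. With only peaks at or above the median score of their list, POLR3C-only loci came to 24 and the score correlation to 0.65. In the full lists 0 POLR3C-only peaks scored at or above the POLR3C median. The 24 are thus paired loci whose POLR3GL peak fell below its own median and was taken out by this setting. Without chromosome 13 the correlation was 0.77 and the median distance between paired loci and their nearest locus 3350 bp, and that of POLR3C-only loci 27312 bp in place of 15477 bp, which is within its interval. With a window of 500 bp, which can take in peaks of neighbouring sites, MEF POLR3G, ES POLR3C and ES POLR3GL each met 81.5% of POLR3GL-only loci. ES POLR3C then met 97.9% of paired loci. This window turned the order of ES POLR3C between POLR3GL-only and POLR3C-only loci (57.9%). Pol II within 1 kb met 41.1% of paired loci. The cause of shifts other than those of the 500 bp pairing and of the POLR3C-only count at the median score was not tested. No paired analysis was possible because each antibody has 1 library per cell type. Read depth and thresholds are unknown, so a missing peak does not show that a subunit is absent.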
